A study of Mus musculus with 2 samples.

Results

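The 9 genes described here are Cs, Idh1, Idh2, Idh3a, Ogdh, Suclg1, Fh1 and Mdh2, which encode enzymes of the tricarboxylic acid (TCA) cycle or isoforms of them, and Irg1, the older symbol of Acod1, whose enzyme makes itaconate. They were chosen by name from the 22886 genes of the deposited tables, and each was listed on 1 line in both tables. Of the 9 genes, 8 were higher in the library of clodronate-injected mice than in that of vehicle-injected mice, most of them by little, and 1 of the 8, Ogdh, lay on the other side once trends of GC content and length were removed. Only 2 differed by at least 2-fold. Idh2, the mitochondrial NADP-dependent isocitrate dehydrogenase, was 2.79-fold higher in the clodronate library, and Cs, the citrate synthase that opens the cycle, was 2.16-fold lower. Irg1 was 1.36-fold higher. For scale, 51.6% of the 10982 genes that passed the level filter given below were higher in the clodronate library. Past 2-fold lay 6.95% of these genes on the higher side and 6.77% on the lower side.

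The series holds 2 RNA sequencing libraries, 1 for each group. The labels describe cells sorted by fluorescence (FACS) and called aerobic, from subcutaneous tumors of Lewis lung carcinoma (LLC), a mouse lung cancer line, in wild type mice of the C57BL/6 strain that received either vehicle or clodronate. Clodronate is a drug commonly given in liposomes to deplete phagocytes. The age of the mice, how many were pooled, the dose and the gate are not given, and the growth protocol of both libraries instead speaks of EML cells, a line of blood progenitors, at odds with the tumor labels. With 1 library in each group, no difference below has a replicate check or a p-value, and the difference between the injections cannot be told apart from that between mice, sorts or library preparations. RPKM, read numbers divided by transcript length and library size, are relative values, so that fewer cells of a type and less RNA per cell cannot be told apart either.

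The TCA cycle burns acetyl-CoA in mitochondria. Citrate synthase joins acetyl-CoA to oxaloacetate, citrate is turned into isocitrate by way of cis-aconitate, and α-ketoglutarate, succinyl-CoA, succinate, fumarate and malate follow in turn. In macrophages activated by microbial products or interferon, IRG1 removes a carboxyl group from cis-aconitate to make itaconate, an antimicrobial metabolite that inhibits succinate dehydrogenase and that is known to act on NRF2, ATF3 and inflammatory genes.

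Marker genes were read against the labels. All 12 macrophage markers had at least 10 RPKM in both libraries, and they summed to 23865 RPKM with vehicle and 22970 RPKM with clodronate. Lyz2 alone had 10534 and 11189 RPKM of these sums. The summed levels of the other marker lists, vehicle first, were 158 and 183 RPKM for monocytes, 160 and 76.9 RPKM for fibroblasts, 43.1 and 45.1 RPKM for neutrophils, 15.8 and 11.4 RPKM for epithelial cells, 11.7 and 9.76 RPKM for T and NK cells, 6.77 and 13.0 RPKM for dendritic cells, 3.34 and 7.84 RPKM for endothelial cells and 2.99 and 1.74 RPKM for B cells. Both libraries were thus rich in macrophage RNA. In the T and NK list Cd4 had 10.3 and 7.72 RPKM, and in the dendritic list Cd209a had 1.25 and 8.68 RPKM. The T and NK sums and the higher dendritic sum with clodronate therefore rested largely on 1 gene each. Of the 8 epithelial markers, Epcam, Krt19 and Cldn4 were listed at 0 in both libraries, whereas Cdh1 had 6.14 and 6.44 RPKM, Krt8 had 3.67 and 1.33 RPKM and Krt18 had 2.97 and 3.19 RPKM. Of the 9 neutrophil markers found, 6 were listed at 0 in both, S100a9 among them, whereas its partner S100a8 had 12.7 and 23.1 RPKM. A gene listed at 0 in these tables is therefore not read as absent. Among 597 loci with at most 0.5 RPKM in both libraries, 62 shared a vehicle to clodronate ratio of 0.816 within 0.1%, which corresponds to 1.23 times as many reads in the vehicle library if these loci hold equal numbers of reads. The absolute depth is unknown.

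The promoters of Irg1 and of the 2 genes that differed by at least 2-fold are shown to set the inducible gene beside those of the cycle. RefSeq on GRCm38.p6 had a promoter for 8 of the 9 genes, with 14 start sites in all, and none was found for Idh3a. Each sequence is the 250 bases before the transcription start, 5′ to 3′ on the strand of the gene, and capitals mark matches, on either strand, to the TATA box TATAAA, the GC box GGGCGG, the CCAAT box CCAAT, the hypoxia response core ACGTG or the NF-kB consensus.
Irg1 (Acod1), plus strand, chr14:103046762-103047011: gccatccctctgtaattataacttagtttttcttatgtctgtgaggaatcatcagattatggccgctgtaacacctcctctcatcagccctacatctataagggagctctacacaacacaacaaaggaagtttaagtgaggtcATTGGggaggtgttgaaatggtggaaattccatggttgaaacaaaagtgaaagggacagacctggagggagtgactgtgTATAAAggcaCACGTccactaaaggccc
Cs, plus strand, chr10:128337477-128337726: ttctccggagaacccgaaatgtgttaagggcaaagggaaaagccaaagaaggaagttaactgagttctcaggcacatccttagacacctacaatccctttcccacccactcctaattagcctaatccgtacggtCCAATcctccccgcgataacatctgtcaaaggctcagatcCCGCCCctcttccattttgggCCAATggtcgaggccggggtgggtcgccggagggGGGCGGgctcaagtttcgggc
Idh2, minus strand, chr7:80115351-80115600: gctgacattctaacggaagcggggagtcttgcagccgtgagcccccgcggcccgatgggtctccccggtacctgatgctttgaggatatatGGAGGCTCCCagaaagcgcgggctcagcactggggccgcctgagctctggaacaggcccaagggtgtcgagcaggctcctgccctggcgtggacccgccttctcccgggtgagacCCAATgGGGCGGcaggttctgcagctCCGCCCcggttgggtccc

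The Irg1 promoter was the only one of the 14 windows with a TATA box, at -28 from the start, a motif held by 12.4% of all 32851 mouse promoter windows of this length. It had 2 CpG, against 9 to 35 in the 13 windows of the other genes and a median of 6 over all windows. It also held a CCAAT box at -107 and an ACGTG core, on the opposite strand, at -18, which 33.8% and 16.6% of all windows held. Neither was particular to Irg1: CCAAT boxes lay in windows of Cs, Idh1, Idh2, Ogdh and Fh1, and the core lay in each window of Ogdh. Cs and Idh2 each held 2 GC boxes, at -76 and -21 in Cs and at -38 and -18 in Idh2. Of the 13 windows of the cycle genes 8 had a GC box, against 32.7% of all windows. These 13 are not separate promoters, as 6 were of Ogdh, some of them overlapping, and 2 of Idh1. The Idh2 window held the NF-kB consensus at -159, as did an Ogdh window and 7.25% of all windows, and a CCAAT box at -44. The interferon-stimulated response element, searched as 2 copies of GAAA with 2 free bases between them and held by 2.98% of all windows, and the NRF1 motif GCGCATGC, held by 2.26%, matched none of the 3 promoters shown. No 2 different motifs overlapped in the 14 windows. These matches describe letters and no binding was measured.

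The level of the genes is given first. Mdh2, the mitochondrial malate dehydrogenase that regenerates oxaloacetate, was the highest of the 9 in both libraries, at 138 RPKM with vehicle and 151 RPKM with clodronate. Cs stood at 116 RPKM with vehicle and 53.9 RPKM with clodronate and was second in both. Ogdh, the E1 subunit of α-ketoglutarate dehydrogenase, had 38.5 and 40.8 RPKM, and Idh1, the cytosolic NADP-dependent isocitrate dehydrogenase, had 35.5 and 37.5 RPKM. These 4 genes kept their order in both libraries, although Ogdh and Idh1 were close to each other in each.

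The other 5 genes lay lower and closer together. Fh1, fumarase, stood at 15.0 RPKM with vehicle and 17.5 RPKM with clodronate. Irg1 had 13.9 and 18.9 RPKM. Idh2 had 13.3 and 37.0 RPKM and lay below Irg1 and Fh1 in the vehicle but above both in the clodronate library, level with Idh1. Suclg1, the α subunit of succinyl-CoA synthetase, had 13.2 and 18.5 RPKM. Idh3a, the catalytic subunit of the NAD-dependent isocitrate dehydrogenase of the cycle, was the lowest, with 8.77 and 9.82 RPKM. Fh1, Irg1, Idh2 and Suclg1 lay between 13.2 and 15.0 RPKM in the vehicle library, and Fh1, Irg1 and Suclg1 between 17.5 and 18.9 RPKM in the clodronate library, so that their order there cannot be read without replicates.

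**Figure D1:**
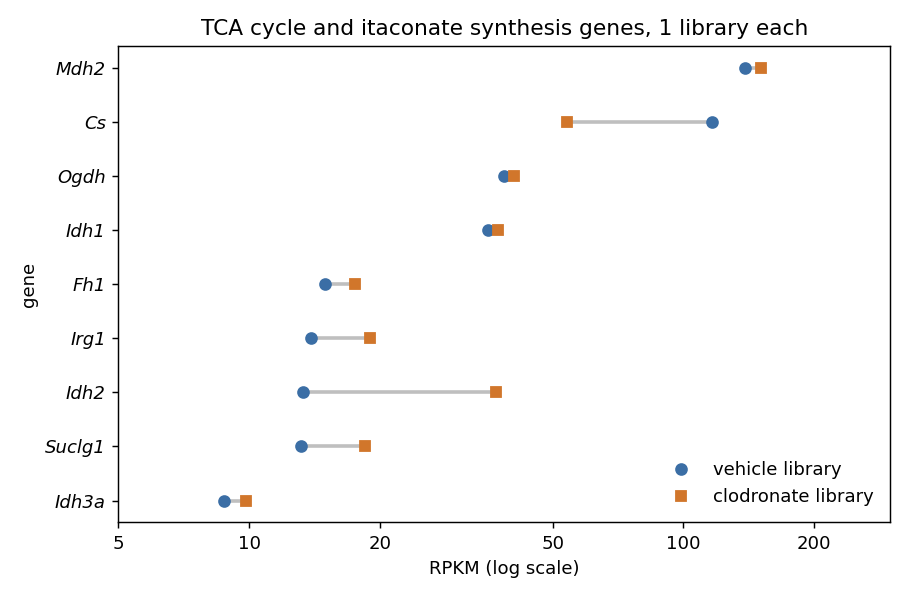
RPKM on a log axis of the 9 genes in the vehicle library (circles) and the clodronate library (squares), 1 library each, ordered by the vehicle value; the grey line joins the values of a gene. Only Cs lies clearly to the left in the clodronate library (116 to 53.9 RPKM), and Idh2 has the longest line to the right (13.3 to 37.0 RPKM).

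The comparison kept 10982 genes, those whose mean reached 1 RPKM. Of these, 94.6% lay at or below Mdh2 in the vehicle library and 94.9% in the clodronate library. For Idh3a the shares were 43.2% and 46.0%. The highest of the 9 genes was 15.8-fold above the lowest in the vehicle and 15.4-fold in the clodronate library. The 8 cycle genes summed to 379 RPKM with vehicle and 366 RPKM with clodronate, of which Cs and Mdh2 made up 67.2% and 56.0%. Without Cs the sums were 263 and 312 RPKM.

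Each gene was compared on the log2(RPKM + 1) scale, as clodronate minus vehicle, called the log2 ratio here. This scale understates the differences of low genes. The median log2 ratio of the 9 genes was 0.15, and that of all genes kept was 0.02. Idh2 was thus the 1 gene of the 9 past 2-fold on the higher side, where 6.95% of the genes kept lay, and Cs the 1 gene past 2-fold on the lower side, where 6.77% lay. In the 7957 genes whose mean reached 5 RPKM, which include all 9, these shares were 4.35% and 4.47%. At 1.5-fold the same 2 genes were past the threshold, beside 16.6% of the genes kept on the higher and 16.3% on the lower side. At 3-fold, 0 of the 9 were, beside 2.86% and 2.32%. The other 7 genes were all higher in the clodronate library, by 0.08 to 0.46 on the log2 scale and within 1.5-fold. With the trends of GC content and transcript length removed, Ogdh was at -0.04, Idh1 at 0.31 and Suclg1 at 0.58. Of all genes kept, 51.6% were higher in the clodronate library.

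**Figure D2:**
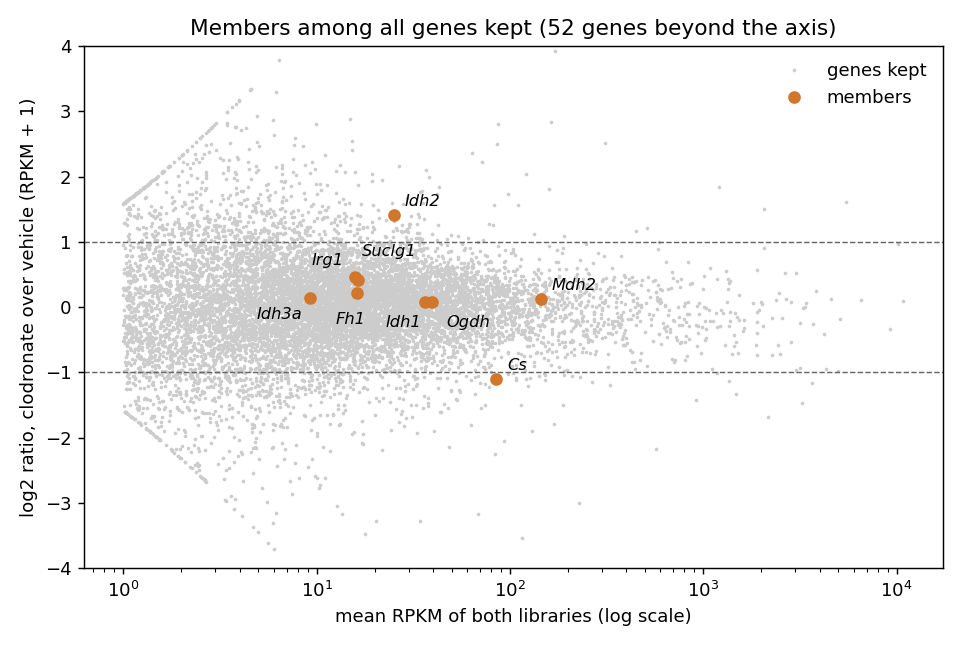
Log2 ratio (RPKM + 1, clodronate over vehicle) against the mean RPKM of both libraries on a log axis, for the 10982 genes kept (grey) and the 9 genes described (orange); dashed lines mark 2-fold, and 52 genes lie beyond the axis. Idh2 lies above and Cs just below the 2-fold lines, and the other 7 genes lie in the dense middle of the cloud.

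Idh2 lies on chromosome 7 of mm9 from 87239734 to 87260236. Its enzyme makes or uses mitochondrial NADPH together with α-ketoglutarate. Its log2 ratio was 1.41, and 3.57% of the genes kept had a ratio as high. Idh1, on chromosome 1 from 65205190 to 65233053, carries out the same reaction in the cytosol. Its log2 ratio was 0.08, and 0.31 with the trends of GC content and length removed. The Idh1 level was 2.67 times that of Idh2 in the vehicle and 1.01 times in the clodronate library, so that Idh2 made up 27.2% and 49.6% of the sum of both. In the GENCODE M21 transcripts of other genes, sampled every 5 bases, no stretch of 50 bases was shared with Idh1 or Idh2.

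The subunits of the NAD-dependent enzyme of the cycle differed little between the libraries. Idh3a, on chromosome 9 from 54434318 to 54452469, had a log2 ratio of 0.15. Idh3b, a regulatory subunit, stood at 56.6 RPKM with vehicle and 58.4 RPKM with clodronate, a log2 ratio of 0.04. Idh3g, the other regulatory subunit, had 83.4 and 97.3 RPKM and a log2 ratio of 0.22. In RPKM, a scale that is per length, Idh3b was 6.45 and 5.95 times as high as Idh3a, and Idh3g was 9.51 and 9.92 times as high, vehicle first. The 3 subunits thus differed in level from each other more than any of them differed between the libraries.

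Cs lies on chromosome 10 of mm9 from 127774888 to 127799535. Its log2 ratio was -1.10, and 5.51% of the genes kept had a ratio as low. Mdh2, on chromosome 5 from 136254519 to 136266256, makes the oxaloacetate that citrate synthase uses and had a log2 ratio of 0.13. Mdh2 was 1.19 times the level of Cs in the vehicle and 2.80 times in the clodronate library. Cs was 8.77 times the level of Idh2 in the vehicle and 1.46 times in the clodronate library. Csl, a gene that shares stretches of 50 bases with Cs in these transcripts, was listed at 0 in both libraries, and how reads of the 2 genes were divided is not known.

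Genes with GC-rich transcripts had higher log2 ratios. Over 10 bins of GC content, the median log2 ratio ran from -0.24 in the GC-poorest bin to 0.29 in the GC-richest. The Idh2 transcript has a GC content of 55.4% and the Cs transcript of 50.4%. With the trends of GC content and transcript length removed, the log2 ratio of Idh2 was 1.38 and that of Cs was -1.18, so that both were about as large as without the correction. Of the 8 fibroblast markers kept, 7 were lower with clodronate, 3 of them by at least 2-fold (Lum, at -1.05, was at -0.80 with the same trends removed), and their median log2 ratio was -0.77, with Dcn at 77.3 and 28.4 RPKM. The part of fibroblast RNA in the levels of Cs and Idh2 was not tested. The macrophage markers had a median log2 ratio of 0.07, with 8 of 12 higher. They ranged from -0.96 for C1qc to 0.88 for Fcgr1. With the same trends removed, C1qc was at -1.05, past 2-fold.

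Irg1 lies on chromosome 14 of mm9 from 103446229 to 103455790. Its log2 ratio was 0.42, and 23.5% of the genes kept had a ratio as high. Irg1 stood at 11.9% of the level of Cs, which supplies citrate, in the vehicle and at 35.1% in the clodronate library, where the lower Cs of the latter enters as well. Over the 2 libraries, 42 of the genes kept lay within 0.1 of Irg1 in log2(RPKM + 1), and the nearest were Maged1 with 13.8 and 18.9 RPKM, Tsc2 with 14.0 and 19.1 RPKM and Slc39a14 with 14.1 and 18.9 RPKM.

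Genes that activated macrophages are known to switch on together with Irg1 did not share a direction. Of the 14 genes of this list 13 were kept, and 7 were higher and 6 lower with clodronate. Their median log2 ratio was 0.07. Il1b, an inflammatory cytokine, stood at 278 RPKM with vehicle and 97.2 RPKM with clodronate, and Il6 had 4.93 and 1.81 RPKM. Both were at least 2-fold lower, with log2 ratios of -1.51 and -1.08, although Il6 was at -0.72 with the trends of GC content and length removed. Il1b was 20.0 times the level of Irg1 in the vehicle and 5.13 times in the clodronate library. Tnf had 92.9 and 84.3 RPKM, and Ptgs2, the inducible cyclooxygenase, had 17.8 and 12.04 RPKM.

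Irf7, a transcription factor of the interferon response, stood at 20.1 RPKM with vehicle and 107 RPKM with clodronate and was at least 2-fold higher. Cxcl10, an interferon-induced chemokine, had 46.8 and 78.6 RPKM, a log2 ratio of 0.74 that was 1.10, past 2-fold, with the trends of GC content and length removed. Ccl5, a chemokine, had 39.2 and 36.6 RPKM. Irf1, a regulator that Irg1 induction is known to use, had 55.9 and 64.1 RPKM. Nos2, the inducible nitric oxide synthase, had 1.59 and 3.12 RPKM. The log2 ratio of Irg1, 0.42, lay between those of Irf1, 0.19, and Cxcl10.

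Of the 8 genes linked to the action of itaconate, 7 were kept, and 4 were higher and 3 lower, with a median log2 ratio of 0.16. Hmox1, the heme oxygenase induced by NRF2, stood at 396 RPKM with vehicle and 789 RPKM with clodronate, a log2 ratio of 0.99, just under 2-fold, that was 1.05 with the trends of GC content and length removed. Nfe2l2, which encodes NRF2 itself, had 148 and 106 RPKM, and its inhibitor Keap1 had 6.45 and 9.50 RPKM. Gclm, another NRF2 target, had 19.6 and 14.4 RPKM, and Atf3 had 165 and 189 RPKM. Clybl, a mitochondrial enzyme that takes part in the breakdown of itaconate, had 10.7 and 3.17 RPKM and was 3.38-fold lower in the clodronate library.

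Downstream of α-ketoglutarate the members differed little. Ogdh, on chromosome 11 of mm9 from 6191600 to 6259097, had a log2 ratio of 0.08. Its partners Dlst, the E2 subunit, with 46.7 and 63.2 RPKM, and Dld, the E3 subunit, with 20.0 and 20.5 RPKM, had log2 ratios of 0.43 and 0.04. Suclg1, on chromosome 6 from 73198499 to 73226901, had a log2 ratio of 0.46, the second highest of the 9 genes. In GENCODE M21 its transcripts shared stretches of 50 bases with transcripts of 9 other genes. Whether these stretches lie in the transcript counted here, and how reads from them were divided, is not known. Of the β subunits with which Suclg1 forms the enzyme, Suclg2 had 8.04 and 6.81 RPKM and Sucla2 had 14.7 and 12.3 RPKM. Their log2 ratios of -0.21 and -0.24 were -0.09 and -0.01 with the trends of GC content and length removed. Fh1, on chromosome 1 from 177531509 to 177555766, had a log2 ratio of 0.21.

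Between Suclg1 and Fh1 lies succinate dehydrogenase, the enzyme that itaconate inhibits. Sdha, its flavoprotein, stood at 91.3 RPKM with vehicle and 61.6 RPKM with clodronate, with a log2 ratio of -0.56. The other subunits differed less. Sdhb had 126 and 136 RPKM, Sdhc had 66.0 and 67.3 RPKM and Sdhd had 67.1 and 60.8 RPKM.

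**Figure D3:**
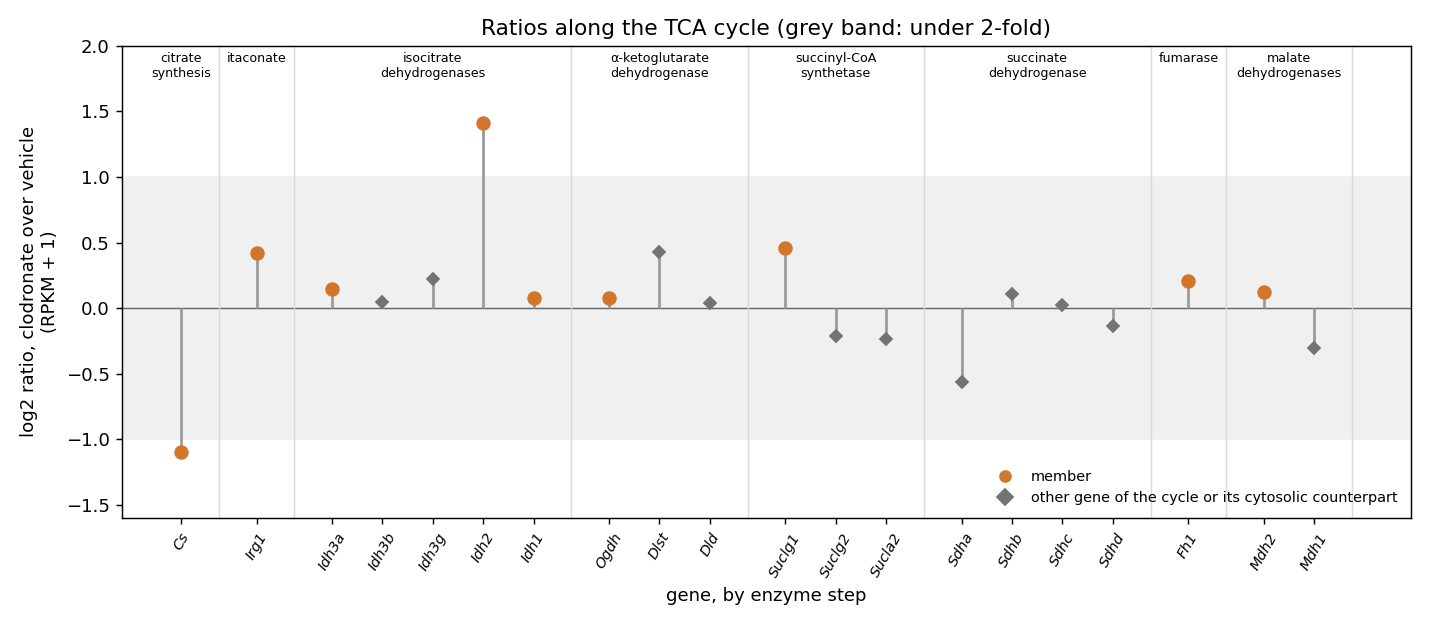
Log2 ratio (RPKM + 1, clodronate over vehicle) of genes in the order of the enzyme steps, with the 9 genes described as orange circles and the other genes as grey diamonds; the grey band marks differences under 2-fold. Cs (-1.10) and Idh2 (1.41) are the points outside the band, and the other genes shown lie within it.

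Over the 11 other genes of the cycle, 7 were higher and 4 lower, none by 2-fold, with a range from -0.56 to 0.43 and a median log2 ratio of 0.04 that was -0.01 with the trends of GC content and length removed. With the 8 cycle genes added, 17 of 19 lay within 1.5-fold, and Idh2 and Cs were the exceptions. Of the 10982 genes kept, 7365 lay within 1.5-fold as well.

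The 13 genes of pyruvate entry include kinases that inhibit pyruvate dehydrogenase beside genes that bring pyruvate into the cycle. Of the 13 genes 11 were kept, and 8 of these were lower and 3 higher with clodronate, with kinases on both sides. The median log2 ratio of the 11 genes, kinases included, was -0.37, and -0.14 with the trends of GC content and length removed. These values therefore do not describe pyruvate entry in 1 direction. Pdhx, which holds the E3 subunit of pyruvate dehydrogenase in the complex, had 12.97 and 4.56 RPKM, and Pdp2, a phosphatase that activates the complex, had 7.80 and 2.46 RPKM. These 2 were at least 2-fold lower. The pyruvate carriers Mpc1, with 62.5 and 43.8 RPKM, and Mpc2, with 33.4 and 21.6 RPKM, were lower as well, by less than 2-fold. So was the E1 subunit Pdha1, with 32.6 and 23.5 RPKM. The log2 ratios of Mpc1, Mpc2 and Pdha1 were -0.50, -0.61 and -0.45. With the trends of GC content and length removed they were -0.14, -0.39 and -0.41. Dlat, the E2 subunit, had 7.08 and 12.6 RPKM, and Pdhb, the other E1 subunit, had 29.5 and 34.2 RPKM.

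Among 15 cytosolic counterparts, feeder enzymes, mitochondrial carriers and Clybl, 7 were higher and 8 lower, with a median log2 ratio of -0.04 that was 0.19 over those with a mean of 5 RPKM or more. Clybl was the only one that differed by 2-fold. Mdh1, the cytosolic malate dehydrogenase, had 40.6 and 32.8 RPKM, so that Mdh2 was 3.41 times its level in the vehicle and 4.61 times in the clodronate library. Slc25a1, which exports citrate from mitochondria, had 18.3 and 26.5 RPKM, and Acly, which splits that citrate into acetyl-CoA in the cytosol, had 39.1 and 51.7 RPKM. Slc25a11, the α-ketoglutarate carrier, had 35.0 and 50.03 RPKM. Glud1, which makes α-ketoglutarate from glutamate, had 72.2 and 98.8 RPKM.

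**Figure D4:**
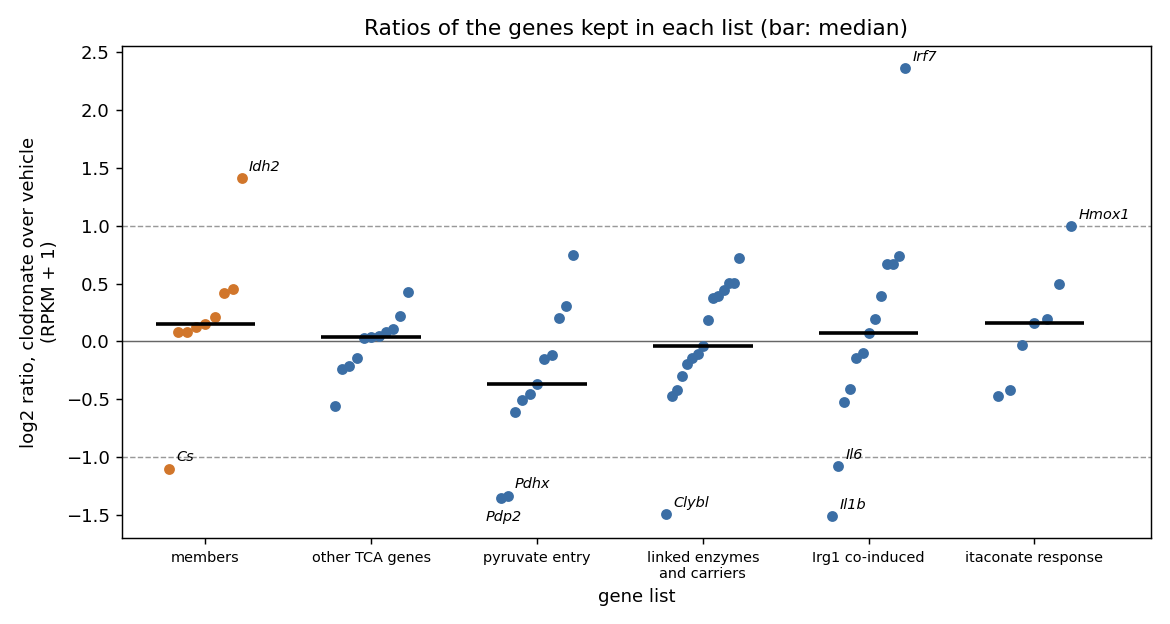
Log2 ratios (RPKM + 1, clodronate over vehicle) of the genes kept in 6 lists, 1 point a gene, with the median as a bar, dashed lines at 2-fold and names on genes near or beyond them. The medians lie between -0.37 for pyruvate entry and 0.16 for the itaconate response list, and Irf7 is the highest and Il1b the lowest point.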

How the data were processed

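The authors deposited 1 table for each of the 2 libraries, with RPKM for 23170 loci and no read totals. The submitters' processing notes name mm9, CASAVA 1.8.2, TopHat2 2.0.9, Bowtie 0.12.9, Cufflinks 2.2.1 and Cuffdiff, without their roles, and the paper describes neither this experiment nor its sequencing. The annotation release is not given in the sources used here. Locus starts, counted from 0 in the tables, are printed counted from 1. For 26 loci whose symbol reads as a number, the accession stood in for it. RPKM were summed over lines of a symbol. Genes whose mean reached 1 RPKM were kept, and a pseudocount of 1 RPKM was added before log2. With 1 library in each group no test was run, and genes were counted at 2-fold. RPKM hold no counts, so no counting interval is given. The genes named were members of the lists and the 3 genes nearest to Irg1, besides Csl, Coq10a, Zfp710 and Gm21057. This choice was made with their values in view. The members and lists were chosen with earlier results of these data known. Lists were those of the cycle, pyruvate entry, linked enzymes and carriers, genes co-induced with Irg1, the itaconate response, mitochondrial mass and 9 sets of cell markers. GC content and length came from the GENCODE M21 transcripts, found for 98.7% of the genes kept, and the medians of 10 bins of each were subtracted. This alternative was chosen after seeing the data. A few genes of the lists are counted but not reported by name here. The counting step was tested on simulated data. Python 3.11.15, numpy 2.4.6, pandas 2.3.3 and matplotlib 3.10.9 were used.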

Additional observations from a re-analysis of the deposited data

How the results depend on the processing

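No paired analysis was possible because each group has 1 library. For the same reason leaving out a replicate was not possible. Of the 9 genes, Idh2 alone lay past the threshold on the higher side and Cs alone on the lower side under a pseudocount of 0.1 RPKM, without the filter, under a minimum mean of 5 RPKM, with centred ratios, under both scalings, with the highest line of a symbol, at 1.5-fold and with GC content and length corrected, whereas 0 and 0 lay past it at 3-fold. The log2 ratio of Idh2 ran from 1.38 to 1.47 and that of Cs from -1.18 to -1.08. The highest line of a symbol could not change the 9 genes, which have 1 line each. The median log2 ratio of the 9 genes was 0.26 with the GC content and length correction, in which Ogdh changed sign, to -0.04. Of all genes kept, 346 were higher and 356 lower under a minimum mean of 5 RPKM, 1828 and 1789 at 1.5-fold, and 314 and 255 at 3-fold, against 763 and 744, as fewer or more genes can pass by construction. The endothelial list, with 2 genes kept and a median log2 ratio of 1.24, had 0.0 with no filter, where 4 of its 8 genes listed at 0 in both libraries enter. A change under 0.1 on the log2 scale was treated as none, since no replicate gives a spread. The unknown depth and the single library of each group limit every value.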

Other observations

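The 9 genes of mitochondrial mass and biogenesis, of which 8 were kept, were 4 higher and 4 lower with clodronate, and their median log2 ratio was 0.08. Vdac1, the main channel of the outer membrane, stood at 94.99 RPKM with vehicle and 69.4 RPKM with clodronate, and Tomm20, a receptor of the protein import machinery, had 26.1 and 16.5 RPKM. Timm23, which imports proteins through the inner membrane, had 38.4 and 56.4 RPKM, and the transcription factor Nrf1 had 6.97 and 12.4 RPKM. None of these differed by 2-fold. Ppargc1a was listed at 0 in both libraries, whereas Ppargc1b, a related coactivator, had 4.24 and 6.13 RPKM.

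Coq10a, chosen after its values were seen, is listed 617 bases from the Cs locus and stood at 2.65 RPKM with vehicle and 10.7 RPKM with clodronate, a log2 ratio of 1.69, on the opposite side to Cs. Zfp710, a neighbour of Idh2 at 2096 bases that was also chosen with its values seen, had 36.6 and 55.8 RPKM. Its log2 ratio was 0.59, on the same side as Idh2. Gm21057, listed at the same distance from Idh2, had 0.0 and 1.12 RPKM.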
